A study of Mus musculus with 21 samples.

Results

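The comparison described here set hepatocytes given TTR-1236 at 2 µM against hepatocytes given Reference 4 at the same dose. Its members were the libraries whose titles carry those agents at that dose, 3 for TTR-1236 and 3 for Reference 4, which made 6 of the 21 samples in the series. All 9657 genes in the files were compared. The cells were primary mouse hepatocytes of genotype WT, sampled at Day 1, and RNA was measured by QuantSeq 3′ mRNA sequencing, which reads about 1 position near the 3′ end of each transcript. The other 15 samples were PBS (3), TTR-1186 at 2 µM (3) and TTR-1236, TTR-1186 and Reference 4 at 0.2 µM (3 each). The series title concerns stereopure phosphoryl guanidine backbone chemistry in RNA interference, and its design names Ttr as the RNAi target. The agents are known here only by their code names, so their sequences and structures are not described. The labels number the replicates 1 to 3 but do not say whether each was a separate animal or culture, so the p-values reflect the scatter of these libraries, possibly technical alone.

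In RNA interference a short guide strand is loaded into an Argonaute protein and directs cleavage of a matching mRNA. Ttr encodes transthyretin, a carrier of thyroid hormone and, with retinol binding protein, of vitamin A, which hepatocytes secrete in large amounts. Duplex RNA can also be read by innate sensors, which leads to interferon release, signalling from the interferon receptors and transcription of interferon-stimulated genes. Hepatocytes make cholesterol through the mevalonate pathway, whose enzymes are transcribed by SREBP2 when sterols are low.

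The profiles of TTR-1236 and Reference 4 at 2 µM were close to each other, and no gene passed the test between them. The interferon-stimulated genes were mostly lower with TTR-1236 than with Reference 4, by a median of -0.33 on the log2 scale over 48 members, and the cholesterol genes mostly higher, by a median of 0.15 over 28 members, with no member of either list past the threshold. Both agents left the target Ttr at a small fraction of its level in PBS.

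Stretches of promoters are shown for interferon-stimulated genes and for a cholesterol gene because these are the families in which the profiles were compared, and their members share short sequence elements. Interferon-stimulated genes carry elements whose core is GAAA, then NN, then GAAA (N is any base), and SREBP2 targets carry sterol elements with the half-site TCACNCCAC. Both were searched on both strands in the 250 bases before each gene's start in RefSeq (GRCm38.p6). Overlapping matches were each counted. Of the 48 interferon members 37 had a promoter in the table and 14 of them held the GAAA-containing core, or 37.8%. Of all 27025 genes with a promoter 3.46% held it. Of the 28 cholesterol members 20 had a promoter and 1 held TCACNCCAC, or 5.0%, against 1.23% of all genes. A match describes the letters only. Each stretch below has 30 bases, printed 5′ to 3′ on the gene's strand with the matched letters in capitals.
Bst2: attccagGAAAATGAAACTGAAAggctgca
Isg15: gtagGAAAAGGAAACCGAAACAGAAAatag
Irgm1: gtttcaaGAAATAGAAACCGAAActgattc
Rsad2: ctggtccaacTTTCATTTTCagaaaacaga
Hmgcs1: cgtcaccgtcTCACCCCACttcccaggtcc
They lie at chr8:71537580-71537609 (minus strand, Bst2), chr4:156200871-156200900 (minus strand, Isg15), chr11:48871428-48871457 (minus strand, Irgm1), chr12:26456553-26456582 (minus strand, Rsad2) and chr13:119690204-119690233 (plus strand, Hmgcs1) in GRCm38.p6. In Rsad2 the match is on the opposite strand, so its capitals are the reverse complement of the core.

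The 21 libraries held 14158740 to 37410773 reads in genes, and the 6 compared here held 17753868 to 33815658. Of the libraries outside the comparison, TTR-1186 at 2 µM replicate 2 and PBS replicates 1 and 3 stood farthest apart. Hepatocyte identity was checked by 41 secreted and identity genes, of which 37 were in the files. Their summed level was 47107 to 54235 CPM (reads per 1000000 counted) with TTR-1236, 50413 to 61402 CPM with Reference 4 and 43367 to 57692 CPM with PBS. Alb, the albumin gene, had 6101 CPM with TTR-1236 and 6388 CPM with Reference 4. Of 16 Kupffer cell and macrophage markers 3 were among the 9657 genes, of 13 liver endothelial markers 4, of 14 stellate cell and fibroblast markers 4 and of 10 cholangiocyte markers 4, and the summed levels of these lists lay between 35.7 and 180.5 CPM in the 6 libraries.

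Ttr itself was low with both agents. With TTR-1236 it had 14.9, 17.3 and 7.77 CPM in replicates 1 to 3, and with Reference 4 it had 27.1, 17.4 and 12.9 CPM. The PBS libraries had 2272, 2168 and 2336 CPM. The groups given the agents overlapped each other and lay far below PBS. Against PBS the difference was -7.37 for TTR-1236 and -6.87 for Reference 4 on the log2(CPM + 1) scale, with adjusted p-values of 1.95e-10 and 8.23e-10 by limma with Benjamini-Hochberg adjustment over all genes. Between the agents it was -0.50 ± 0.42 (SE; 95% interval -1.37 to 0.37), which did not pass the test (adjusted p 0.9999 by limma). That interval spans both a lower and a higher level with TTR-1236.

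Across all 9657 genes the group means of TTR-1236 and Reference 4 had a Pearson r of 0.986 and a Spearman rho of 0.981 on the log2(CPM + 1) scale, a description across genes, which are not replicates. The median absolute difference was 0.170, against 0.312 between TTR-1236 and PBS, 0.300 between Reference 4 and PBS, 0.275 between TTR-1236 and TTR-1186 and 0.250 between TTR-1186 and Reference 4. These comparisons share libraries, so the values stand side by side and were not tested against each other. A difference of at least 2-fold was found for 113 genes, or 1.17%, and one of at least 1.5-fold for 778 genes, or 8.06%.

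**Figure D1:**
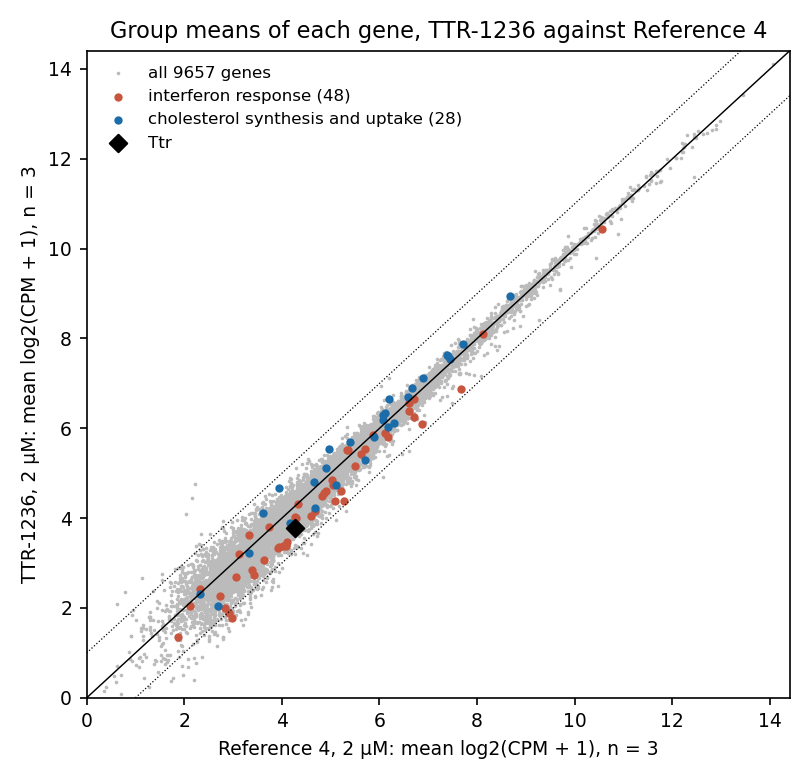
Mean log2(CPM + 1) of each gene in Reference 4 (x axis) and TTR-1236 (y axis) at 2 µM, n = 3 per group; the solid line marks equal means and the dotted lines a 2-fold difference on this scale. Of the 9657 genes 113 lie at or beyond the dotted lines, and most of the 48 interferon members lie below the solid line.

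No gene passed an adjusted p of 0.05 by limma, so the share of genes called was 0% (lowest adjusted p 0.9999). At an unadjusted p under 0.05 by limma there were 288 genes, 2.98% of those tested, of which 94 were higher with TTR-1236 (0.973%) and 194 lower (2.01%). In 338 genes (3.5%) all TTR-1236 libraries lay above all Reference 4 libraries, and in 498 genes (5.16%) all lay below. On the recovered reads edgeR's quasi-likelihood test also called 0 genes, with 264 at an unadjusted p under 0.05, and DESeq2 called 1, Hlf. Hlf encodes a circadian PAR bZIP transcription factor of the liver and was named after its values were seen. It had 1.58, 5.32 and 7.07 CPM with TTR-1236 and 0.691, 1.03 and 0.508 CPM with Reference 4, and PBS had 3.07, 6.38 and 4.71 CPM. The groups given the agents did not overlap, and all values lay near the low end of the range. The difference was 2.68 with an adjusted p of 0.0162 by DESeq2, and 1.55 ± 0.44 with an adjusted p of 0.9999 by limma. For Hlf it was Reference 4 that differed from PBS by limma (-1.68, adjusted p 0.0465), while TTR-1236 differed from PBS by -0.13 (adjusted p 0.903). TTR-1186 at 2 µM was above Reference 4 by 2.26 (adjusted p 0.0250 by limma). How these calls stand over the alternatives is not reported here.

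A p that misses the threshold does not show that genes were alike, so the intervals were counted. For 6534 genes, or 67.7%, the 95% interval of the difference lay within 2-fold in either direction, and for 2521 genes, or 26.1%, within 1.5-fold. Among the 1506 genes of at least 100 CPM the shares were 97.3% and 80.5%. The median interval reached 0.604 log2 units to each side, without adjustment over genes. For such a gene smaller differences could not reach an unadjusted p of 0.05 by limma with 3 libraries per group. The adjusted threshold asks for larger differences still, as none of the 288 genes at an unadjusted p under 0.05 by limma passed it.

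Libraries of different agents were about as far apart as libraries of the same agent. The median absolute difference between a TTR-1236 and a Reference 4 library was 0.306 on average over 9 pairs (0.233 to 0.360). Between replicates it was 0.343 within TTR-1236 (0.285 to 0.379) and 0.284 within Reference 4 (0.240 to 0.329). To PBS it was 0.442 for TTR-1236 and 0.419 for Reference 4. Of the sum of squares among the 6 libraries 18.9% lay between the agents, which hold 1 of 5 degrees of freedom or 20.0%, and 49.2% lay between the replicate numbers, which hold 2 of 5 or 40.0%. The first principal component, with 34.9% of the variance, had both libraries numbered 1 on its positive side and the other 4 on its negative side.

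**Figure D2:**
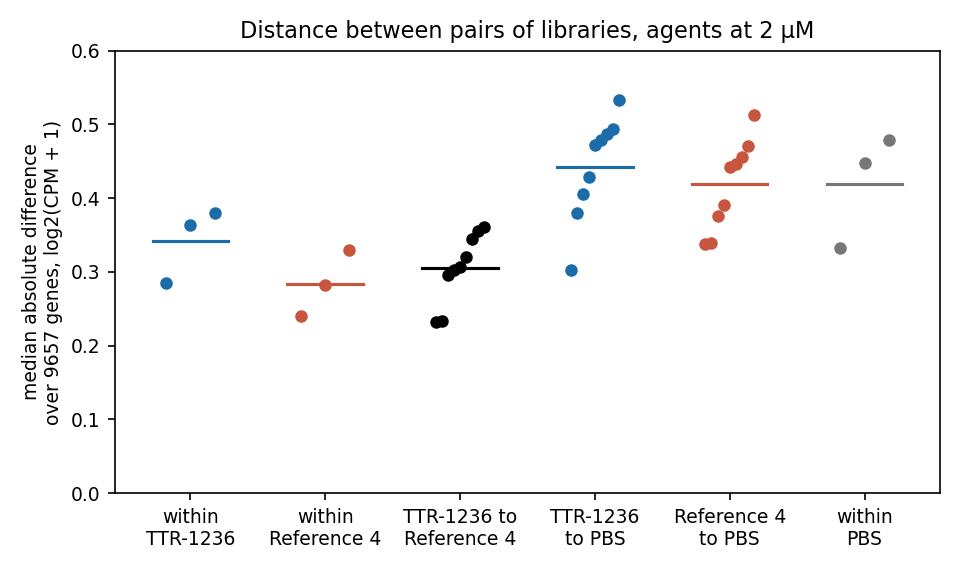
Median absolute difference in log2(CPM + 1) over 9657 genes for each pair of libraries (points; bars are means), by the groups the pair came from, agents at 2 µM. The 9 pairs of a TTR-1236 and a Reference 4 library lie between 0.233 and 0.360, and those within TTR-1236 between 0.285 and 0.379.

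Deviations of same-numbered libraries in these groups correlated weakly, by 0.29, 0.10 and 0.18, and the number was also fitted as a block. Differently numbered pairs had -0.28 to 0.16, the highest being TTR-1236 replicate 2 with Reference 4 replicate 3. Between TTR-1186 at 0.2 µM and PBS the same-numbered values were 0.15, -0.36 and -0.39, so the number did not pair libraries throughout the series. With the replicate block over all 21 libraries 0 genes were called, with 288 at an unadjusted p under 0.05. With the replicate block on the 6 libraries alone, a fit added after the data were seen, limma called 3 genes (0.0311%), all lower with TTR-1236, with 559 at an unadjusted p under 0.05. They were mt-Rnr2, the mitochondrial large ribosomal RNA, mt-Tm, a mitochondrial transfer RNA, and Mup-ps13, a pseudogene of the major urinary proteins whose reads may come from its near-identical relatives. mt-Rnr2 (chromosome M, 1094 to 2675) had 3904, 3613 and 2120 CPM in TTR-1236 replicates 1 to 3 and 8957, 6609 and 2983 CPM in Reference 4 replicates 1 to 3. It was lower with TTR-1236 in each numbered pair, while the groups overlapped. The difference was -0.85, with an adjusted p of 0.00729 by limma with the replicate block. mt-Tm had 143, 78.4 and 71.3 CPM against 264, 150 and 142 CPM, a difference of -0.93 (adjusted p 0.00927 by limma with the replicate block). Mup-ps13 had 44.8, 31.5 and 17.9 CPM against 111, 76.1 and 33.6 CPM, a difference of -1.14 (adjusted p 0.0268 by limma with the replicate block). The PBS libraries had 25585, 22289 and 6705 CPM of mt-Rnr2, so this RNA spanned a wide range within PBS as well. Its relation to the replicate number beyond these values was not tested.

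Among the interferon-stimulated genes, 48 of 62 listed were in the files. Of these 42 were lower and 6 higher with TTR-1236, with a median difference of -0.33, while over all genes 5367 were lower and 4290 higher, with a median of -0.03. None of the 48 was called, where 0% of all genes were. At an unadjusted p under 0.05 by limma 5 members were lower, among them Oasl1, Bst2, Tap1 and Ifi35, and 0 higher. Over all genes 2.01% were lower and 0.973% higher at that level. In 8 members all TTR-1236 libraries lay below all Reference 4 libraries, among them Mx2, Oasl1, Bst2, Ifi35, Dtx3l, Eif2ak2 and Irgm1, and in 0 did all lie above, where 5.16% of all genes lay below in this way and 3.5% above. The summed level of the list was 2798 to 3273 CPM with TTR-1236, 3247 to 4034 CPM with Reference 4 and 2874 to 3035 CPM with PBS, so the agents' ranges overlapped narrowly. Reference 4 replicate 1 carried part of the difference, and without it the median was -0.18 with 35 of 48 lower. The 3 Kupffer cell and macrophage markers in the files summed to 114 to 180 CPM with TTR-1236, 172 to 180 CPM with Reference 4 and 95.1 to 127 CPM with PBS, and Ptprc, Adgre1 and Clec4f were not among the 9657 genes. Their part in the interferon values was not tested.

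Oasl1 encodes an oligoadenylate synthetase-like protein that restrains translation of Irf7 mRNA (chromosome 5, 114923240 to 114937915). It had 16.8, 25.2 and 18.2 CPM with TTR-1236, 48.7, 36.2 and 29.9 CPM with Reference 4 and 30.4, 36.9 and 34.5 CPM with PBS. All 3 TTR-1236 libraries lay below all 6 libraries of Reference 4 and PBS. TTR-1186 at 2 µM had 23.8, 11.7 and 18.1 CPM, so the low level was not particular to TTR-1236. The difference between the agents was -0.89 ± 0.25 (SE; 95% interval -1.40 to -0.38).

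Bst2 encodes tetherin, which holds budding virus at the cell surface (chromosome 8, 71534255 to 71537456), and its promoter holds the interferon core shown above. It had 142, 148 and 73.6 CPM with TTR-1236, 168, 206 and 240 CPM with Reference 4 and 154, 182 and 159 CPM with PBS. The agents did not overlap, and the lowest library was TTR-1236 replicate 3. The difference was -0.80 ± 0.23 (95% interval -1.27 to -0.34).

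Tap1, which carries peptides into the endoplasmic reticulum for antigen presentation, had 25.6, 27.8 and 17.5 CPM with TTR-1236 and 51.0, 36.2 and 25.4 CPM with Reference 4, and the groups overlapped. Ifi35 had 78.3, 74.6 and 71.9 CPM against 123, 104 and 86.6 CPM, with no overlap. Its partner protein Nmi, which is not on the list but was among the lowest p-values, had 3.10, 5.80 and 5.10 CPM against 9.09, 11.9 and 12.8 CPM. Ifi35 and Nmi encode proteins that bind each other, and both differences pointed the same way, -0.46 ± 0.21 and -1.14 ± 0.33. Eif2ak2, the kinase PKR that double-stranded RNA activates, had 7.94, 8.61 and 5.90 CPM against 10.6, 10.8 and 12.8 CPM.

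Some classical interferon-stimulated genes spread widely among the libraries of one agent. Ifit3, a partner of the RNA-binding protein IFIT1, had 24.8 CPM in Reference 4 replicate 1 and 2.98 and 3.79 CPM in replicates 2 and 3, against 2.31, 4.85 and 1.08 CPM with TTR-1236. Rsad2, the antiviral enzyme viperin, had 210, 137 and 54.0 CPM with Reference 4 and 52.8, 117 and 49.0 CPM with TTR-1236. Isg15, a ubiquitin-like modifier, had 27.8, 28.7 and 15.5 CPM with Reference 4 and 10.4, 22.8 and 15.4 CPM with TTR-1236. In Ifit3 and Rsad2 replicate 1 of Reference 4 was the highest library of the 6, and the groups overlapped in all 3 genes. Compared by replicate number, Rsad2, Isg15 and Tap1 were lower with TTR-1236 in each of the 3 pairs, and Ifit3 in 2 of 3. Ifit1 was higher with TTR-1236 in replicate 2, with 11.3 CPM against 9.84 CPM. The labels do not say what a number marks, and these genes do not stand for the whole list. Stat2 and Irf9, which encode subunits of the factor that binds the interferon core, had differences of 0.19 and 0.16, on the other side of 0.

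B2m, the light chain of class I antigen-presenting molecules, had the smallest p of the comparison without reaching the threshold (chromosome 2, 122147686 to 122153083; not on the list). It had 1287, 1638 and 1012 CPM with TTR-1236, 1624, 2031 and 2039 CPM with Reference 4 and 1382, 1358 and 1287 CPM with PBS. TTR-1236 replicate 2 lay just above Reference 4 replicate 1, so the groups overlapped, while each TTR-1236 library lay below the Reference 4 library of the same number. The difference was -0.55 ± 0.14 (95% interval -0.85 to -0.26; adjusted p 0.9999 by limma).

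**Figure D3:**
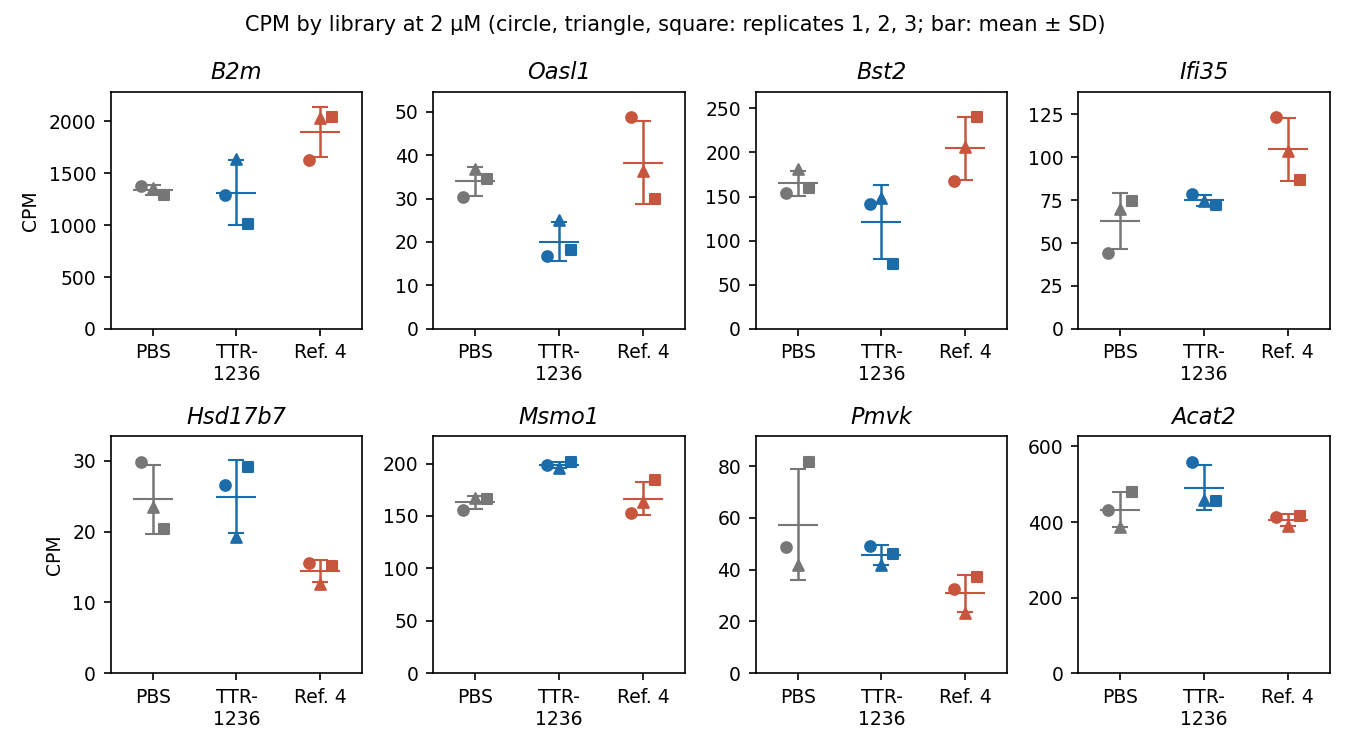
CPM of 4 interferon or antigen-presentation genes (top) and 4 cholesterol genes (bottom) in each library of PBS, TTR-1236 and Reference 4 at 2 µM; points are libraries, marked by replicate number, and bars show mean ± SD (n = 3). Oasl1 lies between 16.8 and 25.2 CPM with TTR-1236, below both other groups, and Hsd17b7 lies between 12.6 and 15.5 CPM with Reference 4, below both other groups.

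Seen from PBS, the interferon list lay on opposite sides for the agents, in comparisons that share the PBS libraries. With TTR-1236 the median was -0.26, with 35 of 48 lower, 4 called lower and 1 called higher, where 6.33% of all genes were called. With Reference 4 it was 0.11, with 28 of 48 higher and none called, where 2.25% were called. TTR-1186 at 2 µM was also below Reference 4, with a median of -0.35 and 35 of 48 lower, of which 1 was called (Irf7, -1.05, adjusted p 0.0321 by limma, lost in 5 of 10 alternatives), where 0.373% of all genes were called. Against TTR-1186 the TTR-1236 list had a median of 0.01, with 25 higher and 23 lower and none called, where 0.342% were called. Ddx58, which encodes the RNA sensor RIG-I, was below PBS with both agents. It had 15.7, 31.8 and 25.1 CPM with TTR-1236, 48.2, 22.0 and 22.4 CPM with Reference 4 and 59.5, 61.5 and 43.8 CPM with PBS, a difference of -1.19 (adjusted p 0.0190 by limma, lost in 5 of 10 alternatives) and one of -0.89 (adjusted p 0.0830), respectively.

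The cholesterol list had 28 of 30 members in the files, 18 higher and 10 lower with TTR-1236, with a median of 0.15. None was called, where 0% of all genes were. At an unadjusted p under 0.05 by limma 4 were higher, among them Hsd17b7, Pmvk and Acat2, and 0 lower, where 0.973% of all genes were higher and 2.01% lower. All TTR-1236 libraries lay above all Reference 4 libraries in 5 members (Acat2, Pmvk, Msmo1, Hsd17b7 and Stard4) and below in 2, among them Srebf2, where the shares over all genes were 3.5% and 5.16%. The summed level was 2296 to 2685 CPM with TTR-1236, 2115 to 2376 CPM with Reference 4 and 2636 to 2739 CPM with PBS. The median was 0.22 without Reference 4 replicate 3 or TTR-1236 replicate 2, and 0.10 without TTR-1236 replicate 1 or 3.

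Among early steps of the pathway some members overlapped between the agents and others did not. Acat2, which joins acetyl-CoA units, had 560, 459 and 454 CPM with TTR-1236 and 414, 388 and 415 CPM with Reference 4, a difference of 0.27 ± 0.13. Hmgcs1, whose promoter stretch is shown above, had 202, 160 and 195 CPM against 158, 182 and 180 CPM, with overlap. Pmvk, the phosphomevalonate kinase (chromosome 3, 89454541 to 89469013), had 49.2, 41.8 and 45.9 CPM against 32.5, 23.1 and 37.0 CPM, a difference of 0.57 ± 0.24.

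The later sterol steps were divided. Sqle, Cyp51, Msmo1, Hsd17b7 and Dhcr7 had differences of 0.10 to 0.74, and Lss, Tm7sf2, Nsdhl, Ebp and Sc5d differences of -0.28 to -0.08. Hsd17b7, a ketoreductase of the late pathway (chromosome 1, 169949535 to 169969241), had 26.6, 19.2 and 29.1 CPM with TTR-1236, 15.5, 12.6 and 15.1 CPM with Reference 4 and 29.9, 23.5 and 20.3 CPM with PBS. All 3 Reference 4 libraries lay below the 6 others, and the difference was 0.74 ± 0.24 (95% interval 0.25 to 1.23). Msmo1, a sterol methyl oxidase, had 199, 196 and 202 CPM against 153, 163 and 184 CPM. Srebf2, the transcription factor of the pathway, had 21.1, 20.0 and 13.3 CPM against 24.2, 28.5 and 21.3 CPM, a difference of -0.44 ± 0.28.

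Both agents were below PBS in parts of the pathway, in comparisons that share the PBS libraries. Mvd, which makes isopentenyl diphosphate, had 76.9, 37.5 and 46.3 CPM with TTR-1236, 37.4, 39.5 and 48.0 CPM with Reference 4 and 77.7, 107 and 133 CPM with PBS. Its differences from PBS were -1.0 (adjusted p 0.0189 by limma, lost in 4 of 10 alternatives) and -1.30 (adjusted p 0.0128 by limma, lost in 1 of 10). Hmgcs1 differed from PBS by -0.64 (adjusted p 0.0281 by limma) and -0.74 (adjusted p 0.0248), calls lost in 5 and 6 of 10 alternatives. Srebf2 differed from PBS by -1.35 with TTR-1236 (adjusted p 0.0101 by limma, lost in 4 of 10 alternatives) and by -0.91 with Reference 4 (adjusted p 0.0717). The medians of the list against PBS were -0.15 and -0.24. TTR-1186 at 2 µM was also above Reference 4 on this list, with a median of 0.30, 23 members higher and 5 lower. Of these 1 was called higher, where 0.373% of all genes were called. Against TTR-1186 the TTR-1236 list had a median of -0.09, with 10 higher and 18 lower. Of these 1 was called lower, where 0.342% of all genes were called. The higher side against Reference 4 was therefore not particular to TTR-1236.

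**Figure D4:**
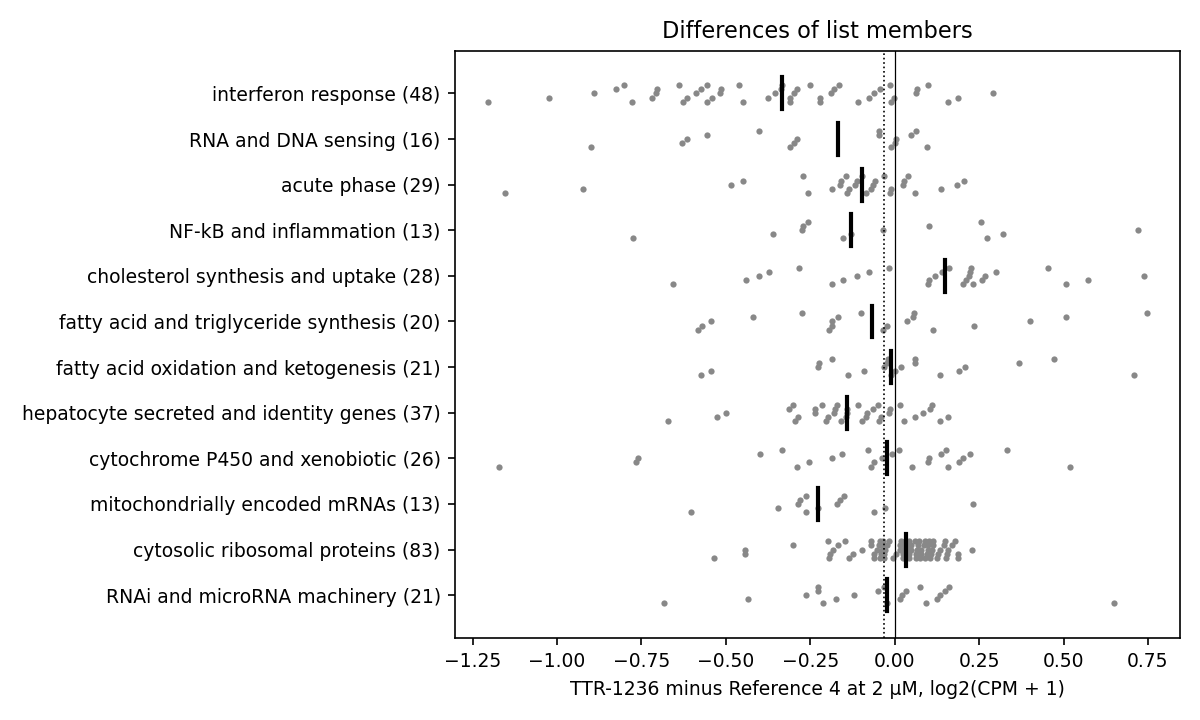
Difference between TTR-1236 and Reference 4 at 2 µM in log2(CPM + 1) (x axis) for each measured member of 12 gene lists (points; thick bars are medians, number of members in brackets); the solid vertical line is 0 and the dotted one the median of all genes, -0.03. The interferon median lies at -0.33 and the cholesterol median at 0.15, while the 83 ribosomal protein genes cluster around 0.03.

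The genes with the smallest p in each direction, among those of at least 10 CPM with no overlap, held few members of one family. On the higher side were Nedd9, Sugp1, Samd8, Hsd17b7, Lztr1, Uhmk1, Cyp2b10, Spast, Mmab and Safb, with differences of 0.52 to 1.31. Cyp2b10, the main target of the xenobiotic receptor CAR, had 376, 298 and 364 CPM with TTR-1236, 224, 226 and 272 CPM with Reference 4 and 234, 241 and 283 CPM with PBS. Its difference was 0.52 ± 0.18, and each TTR-1236 library was above all 6 of the others. Nedd9, an adhesion scaffold, had 12.4, 12.2 and 10.3 CPM with TTR-1236 and 2.07, 8.93 and 3.25 CPM with Reference 4, a difference of 1.31 ± 0.36, and PBS had 18.01, 12.1 and 10.1 CPM. For Nedd9 it was Reference 4 that differed from PBS (-1.47, adjusted p 0.0360 by limma, lost in 6 of 10 alternatives). Sugp1, a splicing factor, had 41.3, 32.3 and 35.3 CPM against 19.4, 28.4 and 15.3 CPM.

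On the lower side were Lamtor2, Oasl1, Bst2, Nmi, Birc6, Prrc2a, Marf1, Pithd1, Rwdd4a and Arel1, with differences of -0.50 to -1.42, so 2 of the 10 came from the interferon list. Lamtor2, a subunit of the Ragulator complex that anchors mTORC1 to lysosomes, had 14.1, 11.5 and 10.7 CPM with TTR-1236 and 18.8, 28.3 and 27.6 CPM with Reference 4, a difference of -0.97 ± 0.27. Birc6, a very large ubiquitin-conjugating enzyme, had 9.63, 11.4 and 14.9 CPM against 26.2, 33.4 and 19.1 CPM, and PBS had 27.1, 69.7 and 29.5 CPM. Prrc2a had 5.29, 7.69 and 2.25 CPM against 15.1, 14.9 and 12.4 CPM. Marf1 overlaps Nde1 and Arel1 overlaps Gm17139 and Fcf1 in the annotation, so their reads may be shared with those neighbours. None of these 20 genes passed the test (adjusted p 0.9999 by limma).

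Hamp, which encodes the iron hormone hepcidin, showed one of the larger differences among secreted liver genes (chromosome 7, 30942368 to 30944032). It had 13.7, 17.4 and 12.7 CPM with TTR-1236, 45.2, 33.6 and 24.6 CPM with Reference 4 and 11.4, 5.13 and 17.9 CPM with PBS. The 3 Reference 4 libraries lay above the 6 others. The difference between the agents was -1.15 ± 0.41 (95% interval -1.99 to -0.32; adjusted p 0.9999 by limma), and Reference 4 was above PBS by 1.61 (adjusted p 0.0382 by limma, lost in 7 of 10 alternatives). Among acute phase genes, which the liver secretes in inflammation, 22 of 29 were lower with TTR-1236, with a median of -0.10 that was -0.01 without Reference 4 replicate 1. Orm2, an acute phase glycoprotein, had 136, 167 and 139 CPM against 229, 203 and 174 CPM. Saa4 had 13.2, 20.4 and 17.4 CPM against 24.4, 24.1 and 23.1 CPM. In Hamp, Orm2 and Saa4 all TTR-1236 libraries lay below all Reference 4 libraries, and in 2 other acute phase members, Crp and Itih3, all lay above. Over all genes 5.16% lay below in this way and 3.5% above. Crp, the C-reactive protein gene, had 70.9, 64.3 and 62.7 CPM with TTR-1236 and 54.8, 60.5 and 58.4 CPM with Reference 4. Itih3, an inter-alpha-trypsin inhibitor heavy chain, had 189, 193 and 196 CPM against 184, 154 and 189 CPM.

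Other families lay close together. Of the 83 ribosomal protein genes in the files 52 were higher and 31 lower with TTR-1236, with a median of 0.03, and for 82 of them the interval lay within 2-fold. All 12 heat shock genes in the files had intervals within 2-fold, and Hspa8, an abundant chaperone, had 525, 651 and 730 CPM against 616, 661 and 709 CPM. Of 33 genes of the asialoglycoprotein receptor, endosomes and lysosomes, the route by which many liver-directed agents enter, 17 were higher and 16 lower, with 31 intervals within 2-fold. Of 21 genes of the RNAi and microRNA machinery 10 were higher and 11 lower, with a median of -0.02 and 17 intervals within 2-fold. Of the 25 NRF2 and glutathione genes 14 were higher and 11 lower, with a median of 0.01. The medians of the ribosomal protein, heat shock, endosome, RNAi and NRF2 lists each changed sign in at least 1 of 17 alternatives, so none of them has a direction. None of these lists had a called member, where 0% of all genes were called.

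Some genes that stood far from PBS were at similar levels with both agents. Of 34 genes called against PBS at 2 µM in earlier results of these data, 21 had intervals between the agents within 2-fold, where 67.7% of all genes did. In 4 of the 34 all TTR-1236 libraries lay below all Reference 4 libraries, and in 0 above, where 5.16% and 3.5% of all genes did. TTR-1236 against PBS had 611 genes called by limma, 139 higher and 472 lower, and Reference 4 against PBS had 217, 57 higher and 160 lower. The counts hung on single libraries and on the pooled spread, being 22 and 40 when only the libraries compared were fitted. The first was 206 and 63 without TTR-1236 replicates 2 and 3 and 49, 46 and 1588 without PBS replicates 1, 2 and 3. The second was 66, 98 and 10 without Reference 4 replicates 1, 2 and 3 and 6, 9 and 1272 without PBS replicates 1, 2 and 3. Jak1, the kinase that starts signalling from interferon and many cytokine receptors, had 153, 121 and 122 CPM with TTR-1236, 137, 147 and 128 CPM with Reference 4 and 297, 310 and 256 CPM with PBS. Its differences from PBS were -1.12 (adjusted p 7.00e-05) and -1.06 (adjusted p 0.000134) by limma and held in all 10 alternatives. The agents differed from each other by -0.07 (95% interval -0.34 to 0.21). Jak1 overlaps Raver2, with which it may share reads, since the strand setting of the counting is not given in the sources used here.

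Haptoglobin (Hp), which binds free haemoglobin, had 3807, 2285 and 2478 CPM with TTR-1236, 3174, 2870 and 2820 CPM with Reference 4 and 5431, 4772 and 5166 CPM with PBS, and the agents differed by -0.08 (95% interval -0.39 to 0.23). Mt1, a metallothionein that binds zinc and copper, had 6130, 8148 and 7903 CPM with TTR-1236, 10023, 7625 and 6837 CPM with Reference 4 and 4416, 4391 and 5039 CPM with PBS, with a difference between the agents of -0.13 (95% interval -0.45 to 0.18). Both genes stood away from PBS on the same side with either agent, and the agents overlapped. Gipc1, a trafficking adaptor, had 24.4, 39.1 and 30.2 CPM, 15.5, 25.1 and 32.5 CPM and 5.58, 8.90 and 8.81 CPM in the same order, and the agents differed by 0.38 (95% interval -0.23 to 0.99).

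TTR-1186 at 2 µM parted from both agents in some genes, of which Igfbp1 and Fdps are given here. Where TTR-1186 differs from both on the same side, they tend to lie together, so these examples do not speak for other genes. TTR-1236 against TTR-1186 had 33 genes called, 9 higher and 24 lower, and TTR-1186 against Reference 4 had 36, 22 higher and 14 lower. The comparisons share the TTR-1186 libraries, of which replicate 2 stood apart, and without it the counts were 181 and 27. The first count was also 19 when only the libraries compared were fitted, 50 with the replicate block, and 170, 2 and 1 without TTR-1236 replicates 1, 2 and 3 and 8 without TTR-1186 replicate 3. The second was 2 and 8 without Reference 4 replicates 1 and 3 and 10 without TTR-1186 replicate 3. Igfbp1, a secreted binding protein of insulin-like growth factors, had 279, 380 and 388 CPM with TTR-1236, 419, 352 and 336 CPM with Reference 4 and 140, 194 and 188 CPM with TTR-1186. TTR-1236 was above TTR-1186 by 1.00 (adjusted p 0.0121 by limma, lost in 3 of 10 alternatives), TTR-1186 below Reference 4 by -1.09 (adjusted p 0.00613, lost in 1 of 10), and TTR-1236 and Reference 4 differed by -0.09 (95% interval -0.46 to 0.28). Fdps, which makes farnesyl diphosphate and was named after its values were seen, had 266, 202 and 234 CPM, 218, 196 and 212 CPM and 393, 352 and 376 CPM in the same order. Its differences were -0.68 for TTR-1236 against TTR-1186 (adjusted p 0.0153 by limma, lost in 4 of 10 alternatives) and 0.84 for TTR-1186 against Reference 4 (adjusted p 0.00465, held in all 10). For both genes the TTR-1236 and Reference 4 libraries overlapped and the TTR-1186 libraries lay apart.

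At 0.2 µM the agents were further apart than at 2 µM, with a median absolute difference of 0.261 against 0.170. Reference 4 at 0.2 µM held 14158740, 14971332 and 14825502 reads and TTR-1236 held 27331804, 37410773 and 22662376, while at 2 µM the depths overlapped. The mean distance between libraries of the agents at 0.2 µM was 0.3565, against 0.3436 within Reference 4 and 0.2365 within TTR-1236. The part of depth and spread in the larger difference was not tested. No gene was called at 0.2 µM either (0%; lowest adjusted p 0.0701 by limma), with 1351 genes at an unadjusted p under 0.05 (13.99%), 1008 higher and 343 lower with TTR-1236. edgeR called 0 (1284 at an unadjusted p under 0.05) and DESeq2 238, limma on only the libraries compared called 499, and without Reference 4 replicate 3 at that dose 18 were called. Across genes the differences at the 2 doses, which share no library, had a Pearson r of -0.06 and a Spearman rho of -0.03. At 0.2 µM the interferon list had 17 members higher and 31 lower, with a median of -0.13, and the cholesterol list 19 higher and 9 lower, with a median of 0.12.

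The change of the difference with dose was tested directly, and no gene was called (0%; 914 at an unadjusted p under 0.05 by limma, lowest adjusted p 0.0935). edgeR called 0 (856 at an unadjusted p under 0.05) and DESeq2 66, and limma called 79 without TTR-1236 2 µM replicate 2 and 40 without Reference 4 2 µM replicate 1. The smallest p-values were those of B2m, Ccl2, Gm10263, mt-Atp6 and Gm10925, the last with values close to those of mt-Atp6, of which it may be a near-identical nuclear copy. B2m had 1368, 1510 and 1571 CPM with TTR-1236 at 0.2 µM and 1079, 1013 and 1086 CPM with Reference 4, so its difference there was 0.48 against -0.55 at 2 µM. Ccl2, a monocyte chemokine, had 56.4, 62.9 and 45.1 CPM against 24.0, 16.2 and 21.6 CPM at 0.2 µM and 37.1, 72.8 and 24.5 CPM against 54.3, 70.2 and 90.3 CPM at 2 µM. In both genes TTR-1236 was the higher agent at 0.2 µM, with no overlap, and the lower by its mean at 2 µM. The interaction was -1.03 ± 0.20 for B2m and -2.15 ± 0.43 for Ccl2, each with an adjusted p of 0.0935 by limma.

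**Figure D5:**
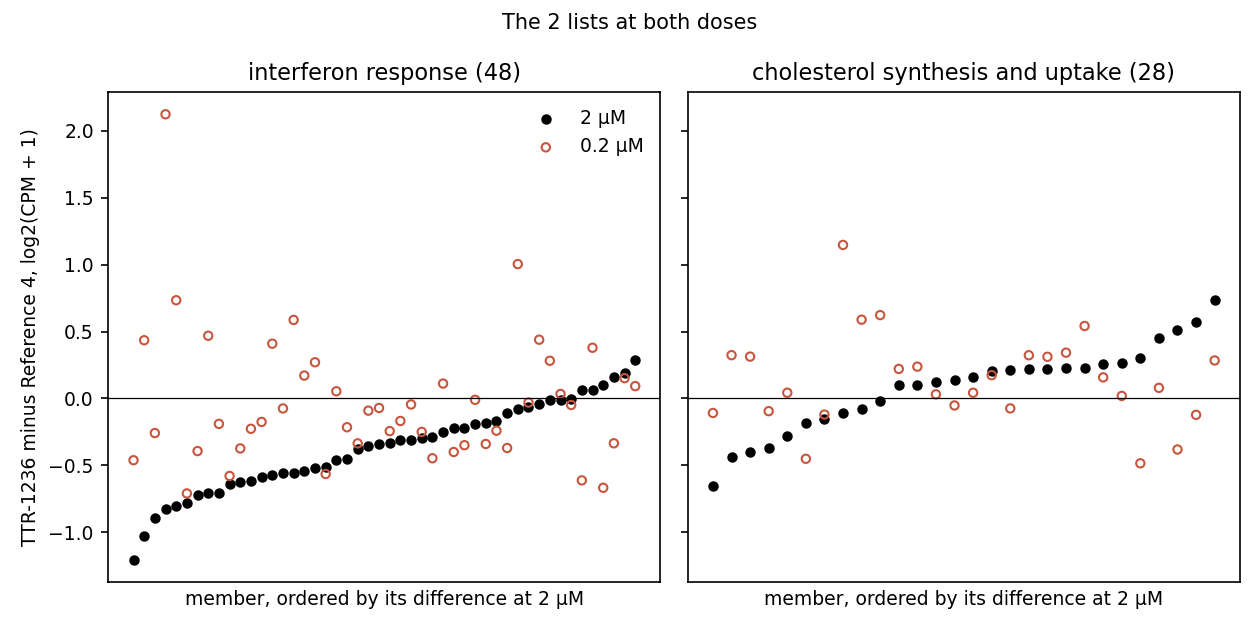
Difference between TTR-1236 and Reference 4 in log2(CPM + 1) for each member of the interferon list (left, 48 genes) and the cholesterol list (right, 28 genes), at 2 µM (filled) and 0.2 µM (open), ordered by the value at 2 µM. At 0.2 µM the interferon members scatter around a median of -0.13, with 17 above 0, against 6 above 0 at 2 µM.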

How the data were processed

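RNA of 21 samples of primary mouse hepatocytes was measured by QuantSeq 3′ sequencing. The authors deposited read counts scaled to a total of 1000000 per sample (CPM) for 9657 genes. The submitters' processing notes name cutadapt 1.15, HISAT2 2.1.0, featureCounts and mm10; for the strand setting and annotation no source used here has an entry. The CPM values were whole multiples of 1 read (100% within a tolerance of 0.001), which gave 14158740 to 37410773 reads per library. The genes deposited had a mean of at least 1.22 CPM, so lower genes were not analysed here. Gene positions are from GENCODE vM21 (GRCm38), in which 9652 identifiers matched.

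Groups came from the sample titles. Differences are on the log2(CPM + 1) scale, which understates changes of low genes. They were fitted with limma 3.58.1 (R 4.3.3) on 7 group means over all 21 libraries, with Benjamini-Hochberg adjustment over all genes and a threshold of 0.05. edgeR 4.0.16 and DESeq2 1.42.0 were run on the recovered reads as alternatives, beside other pseudocounts, a filter of 10 CPM, other scalings, fewer libraries and the replicate number as a block. The script was tested on simulated data. Deviations of same-numbered TTR-1236 and Reference 4 libraries at 2 µM correlated by 0.29, 0.10 and 0.18; the labels do not say what a number marks.

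The members and gene lists were chosen with earlier results of these data known. Genes named were those called, the 10 of smallest p in each direction with at least 10 CPM in either group and no overlap, the leading members of each list, the 5 of smallest p for the change with dose, and genes called against PBS earlier. Hlf, mt-Tm, Mup-ps13, Fdps, Isg15, Irf7, Rsad2, Crp, Itih3 and other members outside this rule were chosen after their values were seen. Some genes under the rule are not reported here.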

Additional observations from a re-analysis of the deposited data

How the results depend on the processing

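With TTR-1236 against Reference 4 at 2 µM, 15 of 17 alternatives also called 0 genes; DESeq2 called 1 (Hlf, 2.68), and the replicate block on the 6 libraries called 3 (mt-Rnr2 -0.85, mt-Tm -0.93 and Mup-ps13 -1.14), against 0 with the replicate block over all libraries. Without single libraries the count stayed at 0, with 205 to 500 genes at an unadjusted p under 0.05 by limma. The interferon median lay between -0.45 and -0.18 and the cholesterol median between 0.10 and 0.22 over 17 alternatives, with no change of sign. TMM scaling moved the median of all genes by less than 0.1.

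At 0.2 µM DESeq2 called 238 genes and limma on only the libraries compared 499, and leaving out single libraries gave 0 to 18. For the change with dose DESeq2 called 66, and leaving out single libraries gave 0 to 79, with 40 without Reference 4 2 µM replicate 1. With only the libraries compared, the counts were 22 for TTR-1236 against PBS, 40 for Reference 4 against PBS and 19 for TTR-1236 against TTR-1186. The replicate block gave 50 for the last, and 657 and 288 for the comparisons with PBS. Leaving out single libraries gave 46 to 1588, 6 to 1272 and 1 to 181 in that order, and 2 to 48 for TTR-1186 against Reference 4. The cause of these shifts was not tested. With 3 libraries per group and a median standard error of 0.292, differences of low genes were limited most.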

Other observations

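Some lists not described above lay to one side with TTR-1236 at 2 µM, with 0% of all genes called and no member called. Of 14 genes of insulin and glucocorticoid responses 11 were lower, with a median of -0.22 that lay between -0.33 and -0.08 over 17 alternatives. Of 17 p53 and apoptosis genes 13 were lower, with a median of -0.11 (-0.17 to -0.06). The 13 mitochondrially encoded mRNAs had 12 lower, with a median of -0.23 that was -0.08 without TTR-1236 replicate 1. The hepatocyte list had 29 of 37 lower with a median of -0.14, and 20 of 37 with a median of -0.02 without Reference 4 replicate 1. The 20 fatty acid and triglyceride synthesis genes were divided, with 8 higher and 12 lower and a median of -0.07 (-0.09 to -0.02), while their summed level, in which abundant members weigh most, was 1265 to 1281 CPM with TTR-1236 and 1324 to 1389 CPM with Reference 4.

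Reference 4 at 2 µM lay as near to TTR-1236 at 0.2 µM, with a mean distance of 0.297 over 9 pairs of libraries, as to TTR-1236 at 2 µM, with 0.306. Its distance to Reference 4 at 0.2 µM was 0.445. Whether these distances differ was not tested.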
